A study of Mus musculus with 2 samples.

Results

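The Mediator kinase module was followed through 6 genes, namely Cdk8, Cdk19, Ccnc, Med12, Med13 and Med13l, on arrays that listed 31165 gene names. Its members were the 15 probes whose symbol or Entrez gene number was that of a listed gene. The study compared CT26 cells, a mouse colon carcinoma line, transduced with the empty lentiviral hairpin vector pLKO.1 (control) with CT26 cells transduced with pLKO.1-shCDK8, which carries a short hairpin RNA against CDK8 (knockdown). Its title places the comparison in the spread of colon cancer to the liver and in matrix metalloproteinases. Total RNA was labelled with biotin and measured on Illumina MouseWG-6 v2.0 arrays, and each group had 1 deposited column of intensities. The labels do not say whether the transduced cells were a clone or a pool, nor which hairpin was used. With 1 sample in each group no test was possible, no p-value was computed, and "higher" and "lower" describe these samples.

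Mediator is the large complex that passes signals from DNA-bound transcription factors to RNA polymerase II. Its kinase module is a detachable part built from a kinase (CDK8 or the paralog CDK19), cyclin C, MED12, which activates the kinase, and MED13 or MED13L, which tethers the module to the core complex. When bound, the module can keep Mediator from engaging the polymerase, and its kinase phosphorylates transcription factors. CDK8 is known as an oncogene in human colon cancer, where it supports transcription driven by beta-catenin.

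The promoters of Cdk8, Ccnc and Med12 are shown because these genes stood for the lower, the near-zero and the higher differences described below. They are the 250 bases before the RefSeq transcription start in assembly GRCm38.p6, all on the plus strand, at chr5:146231000-146231249 for Cdk8, chr4:21727451-21727700 for Ccnc and chrX:101273841-101274090 for Med12. Capitals mark matches, on either strand, to 5 motifs found in promoters. The E-box was searched as CACGTG. The box bound by the factor NF-Y was searched as CCAAT. The GC box, bound by SP1 and its relatives, was searched as GGGCGG. The core bound by ETS factors was searched as CCGGAA. The TATA box was searched as TATAAA.
Cdk8: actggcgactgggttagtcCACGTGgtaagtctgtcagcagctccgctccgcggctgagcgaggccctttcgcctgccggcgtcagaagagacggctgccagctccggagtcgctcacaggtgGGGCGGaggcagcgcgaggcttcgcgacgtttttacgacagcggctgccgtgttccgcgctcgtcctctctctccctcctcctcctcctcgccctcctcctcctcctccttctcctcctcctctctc
Ccnc: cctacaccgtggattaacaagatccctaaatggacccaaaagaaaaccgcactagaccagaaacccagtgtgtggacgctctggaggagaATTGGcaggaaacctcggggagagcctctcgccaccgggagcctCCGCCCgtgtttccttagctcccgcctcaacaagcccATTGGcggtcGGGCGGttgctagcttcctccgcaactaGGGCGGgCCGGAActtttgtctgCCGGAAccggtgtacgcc
Med12: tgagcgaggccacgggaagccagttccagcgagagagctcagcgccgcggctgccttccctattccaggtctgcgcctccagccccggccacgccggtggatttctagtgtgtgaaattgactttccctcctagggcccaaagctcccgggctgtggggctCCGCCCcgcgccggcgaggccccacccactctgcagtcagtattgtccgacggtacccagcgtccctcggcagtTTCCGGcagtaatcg

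In windows of 300 bases, which also take in 50 bases after the start, Cdk8 held 1 E-box and 2 GC boxes. Ccnc held 2 NF-Y boxes, 3 GC boxes and 2 ETS cores, and Med12 held 1 GC box and 1 ETS core. The window of Med13 held 7 and that of Med13l 4 GC boxes, some of those of Med13 overlapping each other. The TATA box was in none of the 5 windows found for the members. Of all 32851 windows of the same length in the table, 7.15% held the E-box, 37.4% the NF-Y box, 35.7% the GC box, 14.9% the ETS core and 13.6% the TATA box. The GC content was 66.7% for Cdk8, 60.0% for Ccnc, 66.3% for Med12, 78.3% for Med13 and 84.7% for Med13l, against a median of 52.7% over all windows. The letters are given as a description of these starts.

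Raw intensities summed to 1.4e+07 over the probes of the control and to 1.46e+07 over those of the knockdown. A probe counted as detected above an intensity of 94.5 in the control and 93.8 in the knockdown, limits set from the dim probes around background peaks of 88.6 and 88.0. By these limits 45.9% and 47.0% of the probes were detected. Of 10 markers of colon epithelium 5 were detected on both arrays, all close to background, with a summed intensity above background of 125 in the control and 76.3 in the knockdown. Epcam, Krt8, Krt18, Krt19 and Vil1 were not detected on either array. Krt20 and Cdx2 were lower in the knockdown, with log2 differences of -0.94 and -0.93, and 1 of the 5 detected markers was above 0. Of 7 leukocyte markers on the array 2 were detected on both arrays, with sums of 169 and 141, and Ptprc was not detected. Most of these sums was in Cd68, at 236.7 and 206.2 with a log2 difference of -0.39, and Csf1r differed by -0.01. Of 5 endothelial markers 1 was detected on both arrays, with sums of 17.4 and 29.8. Of 10 fibroblast markers 7 were detected on both arrays, with sums of 2485 in the control and 4320 in the knockdown, and Thy1 was not detected. Most of the gain in that sum was in Dcn, at 1788.2 and 3097.7 on its brightest probe, and at 1.5-fold 2 markers were higher and 2 lower, among them Col1a1 with a log2 difference of 1.41 and Col3a1 with -0.60. The part of these marker differences in the values below was not tested.

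Of the 15 member probes, 10 were detected on both arrays and 5 on neither. Each of the 6 genes had at least 1 detected probe, so all 6 entered the comparison. Each difference below is a log2 value of the knockdown less that of the control, after background correction, an added offset of 16 and quantile normalization, and the offset draws the differences of dim probes towards 0. The SD of the differences between probes of the same gene was 0.22, pooled over genes with several detected probes. It describes probes on these arrays and not cultures.

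**Figure D1:**
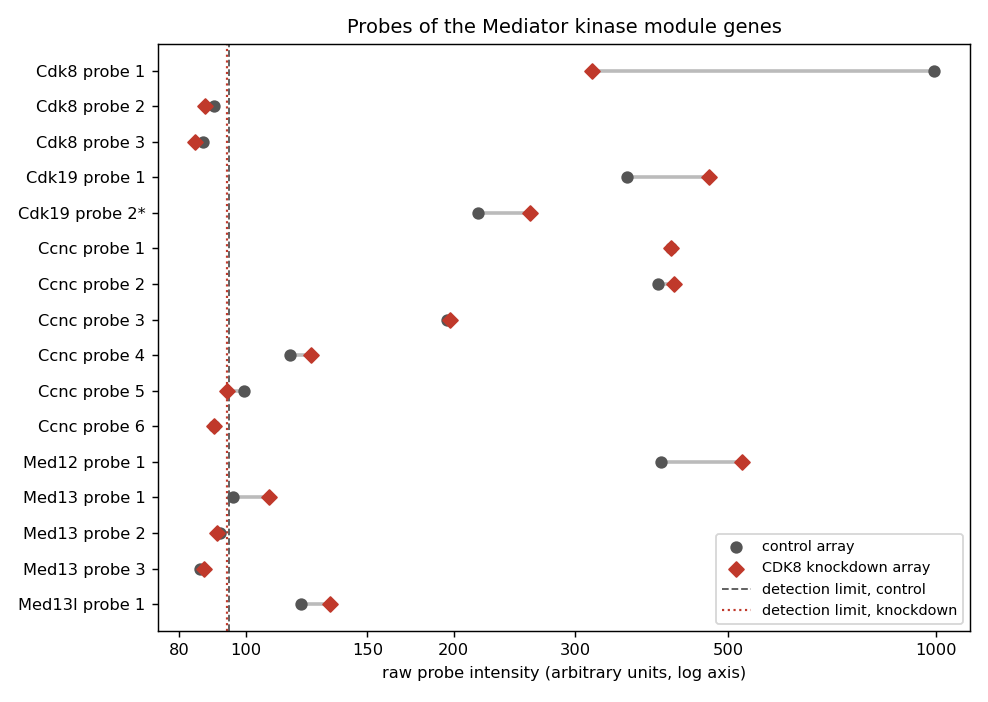
Raw intensity (log axis) of each probe of the module genes on the control array (grey circles) and the knockdown array (red diamonds), with the detection limits of 94.5 and 93.8 as vertical lines; the asterisk marks a Cdk19 probe listed under an older symbol. Cdk8 probe 1 lies at 992.5 and 317.9, Cdk19 and Med12 lie further right on the knockdown array, and the brightest Ccnc probes nearly coincide.

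Cdk8, the kinase that the hairpin targets, was lower on the knockdown array at its only detected probe. That probe read 992.5 in the control and 317.9 in the knockdown. Above the background peaks this left 25.4% of the control intensity, and in the authors' processed values, 639 and 157.3, it left 24.6%. Both readings lay far above the detection limits, so the transcript was lower but still measured in the knockdown. After normalization its log2 values were 9.88 and 7.89, which differ by -1.99 or 3.96-fold. The direction is that of the label. In RNA from a whole culture, fewer cells that express Cdk8 and less Cdk8 RNA per cell cannot be told apart.

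The other Cdk8 probes read 89.9 and 86.5 on the control and 87.1 and 84.3 on the knockdown array. All 4 readings were below the detection limits, so these probes give no fold. With them averaged in, the difference of Cdk8 was -0.69. Probe sequences were not used here, so which Cdk8 transcripts each probe reads, and whether a probe of Cdk8 or Cdk19 also reads its paralog, was not examined.

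Set against the rest of the array, the Cdk8 difference ranked 6 from the low end of 13531 genes detected on both arrays. Of those genes 0.547% were at least 2-fold lower. Among the 263 probes whose control intensity was within 5% of that of the bright Cdk8 probe, this probe alone had so low a ratio of knockdown to control (0.380%). The 4 genes whose difference was nearest to that of Cdk8 over the 2 arrays were Slpi at -1.95, Kcnab2 at -1.85, Scnn1g at -2.13 and Arhgap45 at -1.84. Their gaps to Cdk8 were 0.038, 0.139, 0.148 and 0.148. Each rested on 1 detected probe. On the knockdown array their log2 values were 8.52, 5.99, 4.46 and 5.20, so Scnn1g was near background there.

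Cdk19, which encodes the paralogous kinase that can take the place of CDK8 in the module, was higher on the knockdown array. Its probe, listed in the table under the older symbol Cdc2l6, read 356.8 in the control and 469.2 in the knockdown. Intensity above background was 142% of the control value, or 131% in the authors' processed values. The log2 values were 8.20 and 8.58, a difference of 0.38 or 1.30-fold. Of all genes detected on both arrays 6.16% were higher by as much or more.

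A second Cdk19 probe carried no Entrez number and stood under the older symbol 2700084L06Rik, which the RefSeq gene table gives as a synonym of Cdk19. It was not among the 15 probes. Its readings were 217.1 in the control and 257.7 in the knockdown. They differed by 0.26 after normalization. Both probes were thus higher in the knockdown, and with the second averaged in, the difference of Cdk19 was 0.32. Of 582 probes with a control intensity within 5% of it, 16.8% had as high a ratio, against 7.56% of 450 for the first probe.

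**Figure D2:**
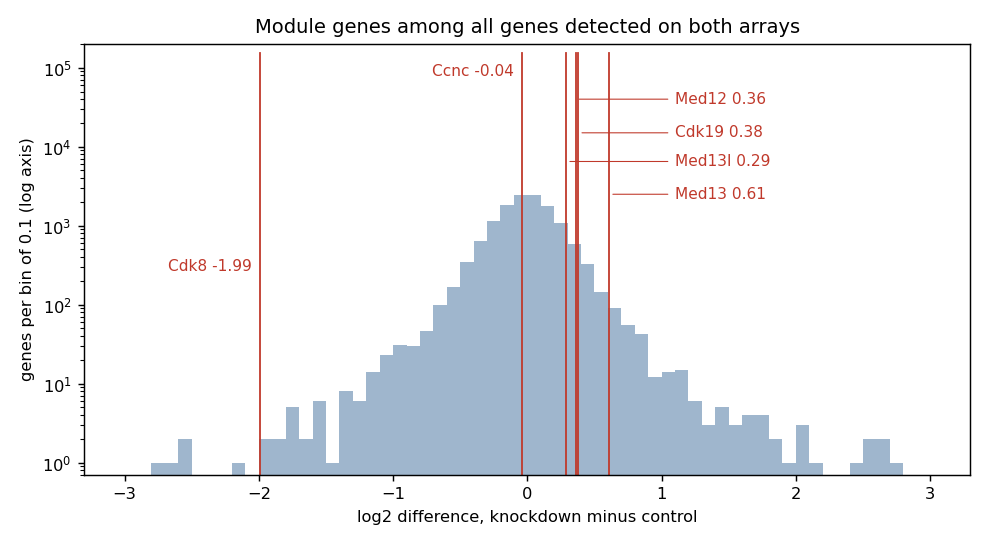
Histogram of the log2 difference, knockdown minus control, of the 13531 genes detected on both arrays (bins of 0.1, log axis of gene counts), with the 6 module genes as red lines. Cdk8 lies in the sparse lower tail at -1.99, Ccnc in the centre at -0.04, and the other 4 genes on the upper side between 0.29 and 0.61.

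Ccnc, which encodes cyclin C, the partner that both kinases need, was close to equal on both arrays. The brightest probes read 413.8 and 395.3 on the control and 413.3 and 416.7 on the knockdown array. The next probe, which carries an Entrez number, read 195.6 and 197.5. These 3 probes differed by -0.10, 0.00 and -0.06 after normalization.

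The dimmer Ccnc probes went in opposite directions, with 115.8 and 124.2 for the one and 99.4 and 94.0 for the other, and differences of 0.24 and -0.30. The sixth probe was not detected, with 89.9 and 90.0. Over the 5 detected probes the mean difference was -0.04 with an SD between probes of 0.19. Only 1 of these 5 carried an Entrez number, and the others were matched by symbol. The mean lay within the spread between the probes, and among the 15 probes no other module gene had more than 1 detected.

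Med12, the subunit that binds cyclin C and activates the kinase, was higher on the knockdown array at its only probe. The probe read 399.4 in the control and 524.2 in the knockdown, or 140% of the control value above background and 128% in the authors' processed values. The log2 values were 8.40 and 8.77, a difference of 0.36 or 1.29-fold. Of all genes 6.75% were higher by as much or more. The probes of its paralog Med12l, listed under the older symbol AU044581, were not detected on either array, with 93.3 and 86.6 on the control and 91.5 and 89.8 on the knockdown array.

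Med13, the subunit that tethers the module to core Mediator, had the highest difference of the 6 genes, but near background. Its only detected probe read 95.8 on the control, just above the limit of 94.5, and 107.9 on the knockdown array. The log2 values were 4.55 and 5.15, a difference of 0.61 or 1.52-fold. Of all genes 1.91% were higher by as much or more. The other Med13 probes were not detected, with 91.8 and 85.7 on the control and 90.9 and 87.0 on the knockdown array. The difference was 0.28 with an offset of 50, 0.20 with all probes averaged, 0.17 without background correction and 0.02 in the authors' processed table, so its size rests on how dim probes are handled.

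Med13l, the paralog of Med13, was measured by 1 probe, listed under the older symbol Thrap2. It read 120.3 in the control and 132.5 in the knockdown, both detected. The raw gain of 12.2 units was close to the 12.1 units of the Med13 probe. The log2 values were 5.60 and 5.89, a difference of 0.29 or 1.23-fold. Of all genes 10.3% were higher by as much or more. The difference was 0.12 without background correction, under the 1.2-fold mark of 0.26.

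Taking the genes by fold, 4 of the 6 were at least 1.2-fold higher on the knockdown array, namely Cdk19, Med12, Med13 and Med13l, and Cdk8 was lower. Over all genes detected on both arrays 12.4% were at least 1.2-fold higher and 13.2% at least 1.2-fold lower. At 1.5-fold, Med13 was the 1 higher gene, against 2.08% of all genes. Without background correction the genes at least 1.2-fold higher were Cdk19 and Med12, against 5.02% of all genes. The median over the 5 genes other than Cdk8 was 0.36, against -0.01 over all genes, and lay between 0.17 (without background correction) and 0.38 under the 9 alternatives. The genes lie on chromosomes 5 (Cdk8 and Med13l), 10 (Cdk19), 4 (Ccnc), X (Med12) and 11 (Med13), whose genes had median differences between -0.01 and 0.02.

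**Figure D3:**
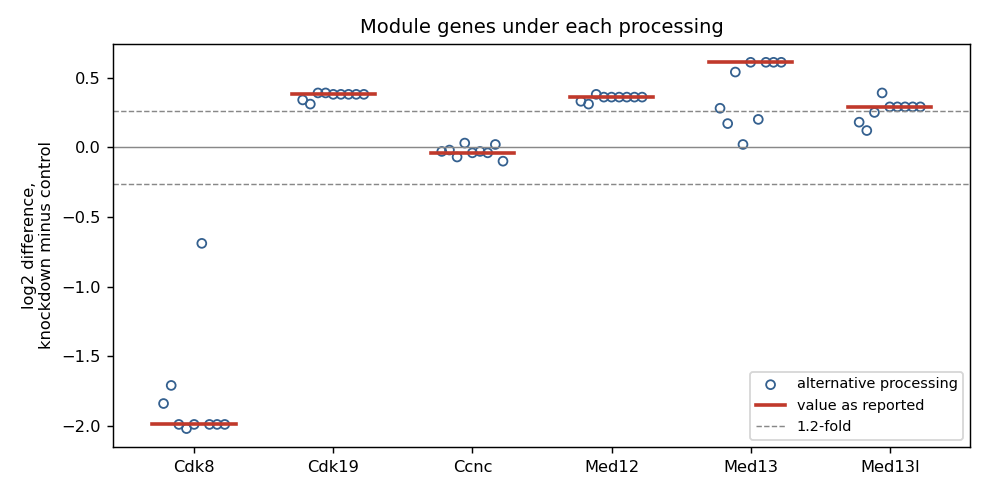
Log2 difference of each module gene as reported (red bar) and under the 9 alternatives of processing (open circles), with dashed lines at 1.2-fold. Cdk19 stays between 0.31 and 0.39 and Med12 between 0.31 and 0.38, Ccnc straddles 0, Med13 spreads from 0.02 to 0.61, and Cdk8 leaves its place near -1.99 mainly at -0.69, with all its probes averaged. For Cdk19, Med12 and Med13l, with 1 probe each, alternatives of detection limit and probe choice could not change the value.

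The subunits of core Mediator, to which the module binds, were set beside it. Of 26 core genes 25 were detected on both arrays, with 2 at least 1.2-fold higher and 3 at least 1.2-fold lower, and a median of -0.07. That share is close to the background of 25.5% in either direction. Med17, the head scaffold, was detected on the control array only, at 94.6 against 90.4.

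By position in the complex, the 11 detected genes of the head, which contacts the polymerase, all had differences below 0, from -1.14 to -0.01, with a median of -0.18. Over all genes 50.8% were below 0. The SD of 0.22 describes single probes of the same gene and is no measure of the spread of a median over 11 genes. Whether the head genes moved together was not tested. The head median lay between -0.20 and -0.15 under the 9 alternatives, none of which put a head gene above 0; in the authors' processed table, with its floor of 16, 10 of the 11 lay below 0. Med30, a head subunit, was the 1 head gene past 1.2-fold in this processing, with a difference of -1.14. Its single probe read 1396 in the control and 705.1 in the knockdown. The next largest head differences were Med28 at -0.25 and Med29 at -0.23. With median scaling 3 head genes were at least 1.2-fold lower, and 2 with the brightest probe of each gene.

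Of the 8 genes of the middle, Med4 was higher with a difference of 0.34, and Med10 and Med31 were lower at -0.46 and -0.27. The median of the middle was 0.02. The 348 genes of chromosome 14, among them Med4, had a median difference of 0.21. Of the 6 genes of the tail, which receives activators, 5 were above 0 and the median was 0.09. Med16 was the tail gene past 1.2-fold, at 0.27. Whether the kinase module and the core differ beyond the spread between cultures was not tested.

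**Figure D4:**
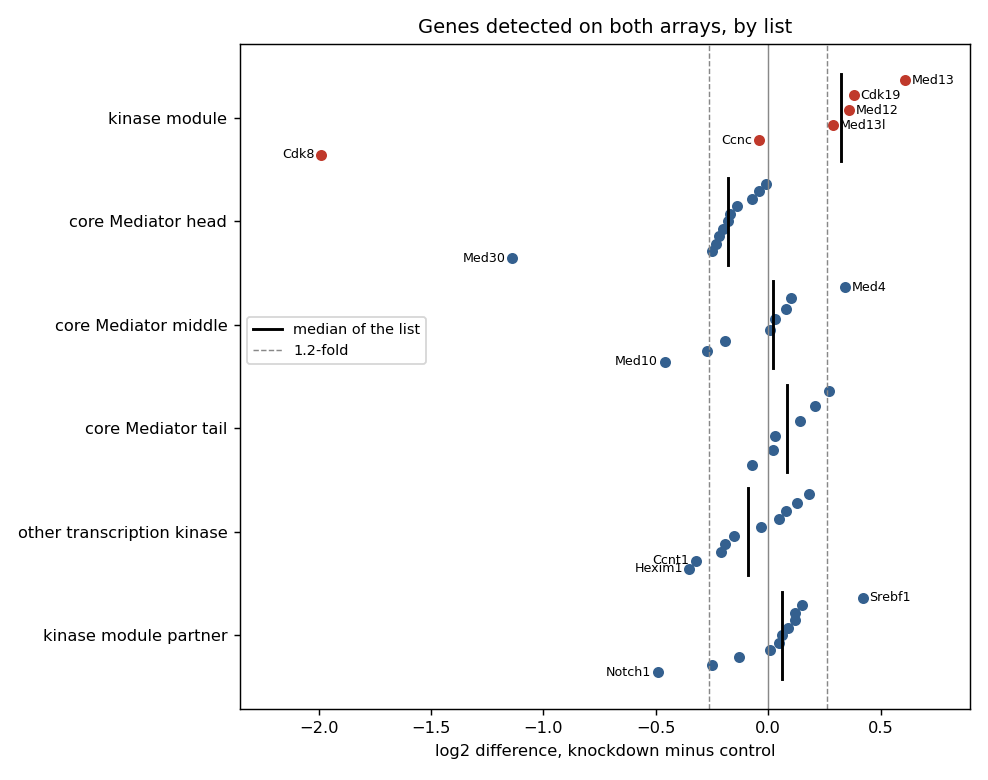
Log2 difference of each gene detected on both arrays, by list, with the median of each list as a black bar and 1.2-fold as dashed lines. In this processing the module genes other than Cdk8 and Ccnc lie to the right of the upper 1.2-fold line, the 11 head genes all lie left of 0 with Med30 at -1.14, and the medians of the remaining 4 lists lie between -0.09 and 0.09.

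Kinases that act on RNA polymerase II outside Mediator, with their cyclins, assembly factors and regulators, gave 10 genes detected on both arrays out of 11. None was at least 1.2-fold higher and 2 were lower, against 12.4% and 13.2% of all genes, and nothing is read from such small counts. The lower genes were Hexim1, which holds the elongation kinase P-TEFb inactive, at -0.35, and Ccnt1, the cyclin of P-TEFb, at -0.32. The median was -0.09. Cdk9, the kinase of P-TEFb, differed by 0.18, and Cdk7, the kinase of the initiation factor TFIIH, was near background and detected on the control array only, at 95 against 93.

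Genes of proteins that the module is known to phosphorylate or bind, or that control its subunits, gave 11 genes detected on both arrays out of 12, with a median of 0.06. Of these 1 was at least 1.2-fold higher and 1 lower, near the shares of 12.4% and 13.2% over all genes. Srebf1, a regulator of lipid synthesis whose protein is marked for breakdown by CDK8, was higher with a difference of 0.42, from 117.6 to 134.3. Notch1, whose active fragment the module phosphorylates, was lower at -0.49, from 145.2 to 125.7. Both probes were dim. Without background correction none of the 11 genes reached 1.2-fold, where 5.02% of all genes were higher and 5.20% lower by that much. Fbxw7, the ubiquitin ligase subunit that targets MED13 and MED13L in human cells, differed by -0.13, and Rest was not detected.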

How the data were processed

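Per the labels, 2 RNA samples were measured, 1 control and 1 knockdown, on Illumina bead arrays. The deposited raw table holds 1 raw intensity for each of 45281 probes. Per the file headers it was written by GSGX 1.9.0, unnormalized and with no background subtracted. It has no detection p-values. It is headed as a group profile, and whether several arrays lay behind a column is not given in the sources used here. The authors' processed intensity values, whose making is likewise not given there, are linear; 29.8% lie below 0 on each array, both medians are 3.4 and the sorted columns differ by at most 0.1. Centring and further scaling stay unknown, so they served as an alternative, with values under 16 set to 16.

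Background was placed at each array's peak of dim intensities, and its SD (2.56 and 2.49) came from mirroring the values below that peak. Detection was set at the upper 1% of that distribution, which may be lenient where real negative controls reach higher. Intensities were corrected with normexp in limma 3.58.1 (R 4.3.3), an offset of 16 was added, and quantile normalization and log2 followed. Probes detected on either array were averaged to a value per gene. Entrez numbers found in the RefSeq gene table (29586 of 31508) updated 5839 symbols. The steps were also run on simulated arrays, whose planted changes were at least 2-fold and in genes with a probe well above background. Such arrays do not bear on differences of 1.2-fold or of dim probes.

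Members and lists were chosen with earlier results of these data known. Named genes were the members, Med12l, up to 4 genes past 1.2-fold in each list with the largest differences, and the 4 genes nearest to Cdk8; further list genes were chosen after their values were seen. Promoters are from RefSeq, assembly GRCm38.p6, with 5 of the 6 members found by symbol. Alternatives changed the background correction, offset, normalization, table, detection limit and choice of probes.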

Additional observations from a re-analysis of the deposited data

How the results depend on the processing

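With 1 sample in each group, nothing estimates the spread between cultures, and no paired analysis was possible because each group has 1 sample. A difference counted as moved past the SD between probes of 0.22, and a count past 1.5 times. Of 101 comparisons with an alternative, 85 kept their value by these limits and 16 moved. Part of the 85 could not move, because a gene with 1 probe is unchanged by another detection limit or choice of probes. Cdk8 was lower under all 9 alternatives, at -0.69 with all probes averaged and -1.71 without background correction. Cdk19 and Med12 were at least 1.2-fold higher under every alternative run, and Med13 and Med13l were above 0 under all 9 but at least 1.2-fold higher under 6 each. Med13 was at 0.02 in the authors' processed table, where the control value of 5.8 was raised to 16 and the knockdown value is 16.2. Ccnc lay between -0.10 and 0.03, with a sign that changed. Without background correction, 3 kinase module genes were past 1.2-fold in place of 5. Core Mediator genes past 1.2-fold were 3 with an offset of 50 and 3 without background correction, in place of 5, and 7 with median scaling and with the brightest probe of each gene. Other transcription kinase genes were 1 with an offset of 50 and 1 without background correction, in place of 2. Module partner genes were 1 with an offset of 50, 0 without background correction and 1 with all probes averaged, in place of 2. All detected genes past 1.2-fold numbered 1964 with an offset of 50 and 1382 without background correction, in place of 3457. Both settings shrink differences of dim probes by construction. Alternatives with the second Cdk19 probe (0.32) and with Ccnc probes that carry an Entrez number (-0.06) were chosen after seeing the data. Signal over background limits Med13 and Med13l, which lay within 50 units of the background peaks on both arrays.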
